A study of Rattus norvegicus with 174 samples.

Results

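Gene expression was measured in whole lung of rats killed 3 h after they had breathed phosphine, set against lung of rats killed 3 h after air. The comparison was fixed by the sample titles alone: 4 exposed and 4 air lungs, 8 of the 174 arrays of the series. All 13438 genes with a probe set that names 1 gene were tested, and none was picked by its values. The study as a whole used 33 rats, adult males of the outbred Sprague-Dawley stock weighing 300 to 400 g, and sampled lung, 4 other solid organs and blood at 1, 3, 6 and 24 h after a whole-body exposure. The exposed rats breathed phosphine at 660 ppm over 32.2 min, which the labels give as 21252 ppm x min and as 0.91 of the LCt50, the product of concentration and time that kills at the median. The others breathed air. The labels name no transgene, and all groups shared ketamine and xylazine at killing. The lung comparisons at 1 and 24 h also had 4 exposed and 4 air rats, and that at 6 h had 4 and 2. Each lung came from a separate animal.

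Phosphine is a fumigant gas that is absorbed through the lung and interferes with mitochondrial electron transport, above all at cytochrome oxidase, and it can injure lung and heart. The gas-exchange surface is built of flat alveolar type 1 cells, of type 2 cells that make surfactant, and of a dense bed of capillary endothelium. Fluid is kept out of the alveoli by tight junctions and by the active transport of sodium from the air space, carried by the epithelial sodium channel and the sodium pump. Glucocorticoid hormones, which rise under stress in any rat, act on many of these genes through a nuclear receptor.

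Values are RMA log2 signals, in which 1 unit is a 2-fold difference, and each difference is exposed minus air with the SE of a limma fit to all 30 lung arrays. A gene counted as called, and is said to have risen or fallen, where its padj, the p adjusted by Benjamini-Hochberg over all 13438 genes, lay under 0.05. Where 8 values follow, the first 4 belong to exposed Rat728, Rat729, Rat730 and Rat731 and the last 4 to air Rat732, Rat733, Rat738 and Rat739. A signal cannot be set against that of another gene, since probes differ. In whole tissue, fewer cells of a type and less RNA per cell cannot be told apart.

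To show what stands before 3 of the genes that rose most, the 250 bases before the annotated start are printed from RefSeq on build GRCr8, 5′ to 3′ on the gene's strand. The 3 were picked by hand, each with a motif that its promoter holds, so they do not stand for the other genes. Capitals mark a match on either strand. The first promoter is that of the metallothionein Mt2A at chr19:10838709-10838958 (minus strand), with both matches to TGCGCNC, the core of the metal response element.
Mt2A: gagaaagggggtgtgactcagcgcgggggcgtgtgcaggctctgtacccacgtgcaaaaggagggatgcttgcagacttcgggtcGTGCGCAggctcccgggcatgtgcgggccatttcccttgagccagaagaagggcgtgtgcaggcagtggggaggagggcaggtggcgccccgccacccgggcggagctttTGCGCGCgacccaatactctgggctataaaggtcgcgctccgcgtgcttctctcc
The next is that of the small Maf transcription factor Maff at chr7:112792537-112792786 (plus strand), with its match to the cyclic AMP response element TGACGTCA.
Maff: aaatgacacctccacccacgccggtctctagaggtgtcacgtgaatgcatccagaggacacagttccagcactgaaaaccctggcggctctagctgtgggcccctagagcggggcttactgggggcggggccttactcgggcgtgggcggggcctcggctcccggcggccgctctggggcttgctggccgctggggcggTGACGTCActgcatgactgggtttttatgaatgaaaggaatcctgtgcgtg
The last is that of the stress-activated kinase Map3k6 at chr5:150723995-150724244 (plus strand), with its match to ACANNNTGT, a core of the glucocorticoid response element.
Map3k6: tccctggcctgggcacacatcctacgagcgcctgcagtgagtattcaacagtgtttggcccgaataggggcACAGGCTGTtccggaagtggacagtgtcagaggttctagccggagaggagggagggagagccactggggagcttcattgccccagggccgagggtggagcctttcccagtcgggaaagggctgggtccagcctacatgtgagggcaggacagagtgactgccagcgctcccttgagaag

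Of the 15 genes with the largest rise and the 15 with the largest fall, 14 and 10 had a promoter in the RefSeq table, read from 250 bases before to 50 after the start. TGCGCNC was found in 3 of the 14 and in 2 of the 10, against 14.1% of all 33469 promoters. TGACGTCA was found in 1 of the 14, that of Maff, and in 0 of the 10, against 1.83%. ACANNNTGT was found in 2 of the 14, those of Map3k6 and Npr3, and in 1 of the 10, against 6.86%. The AP-1 site TGACTCA stood in 2 of the 14 and 1 of the 10 (4.63% of all). The heat shock pair GAANNTTC stood in 1 and 0 (8.59%), and the serum response element in 0 and 1 (1.64%). In these 24 promoters 0 matches of different motifs shared bases. A match describes the letters only.

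The mean of 8 type 2 cell markers lay between 11.5 and 11.8 on the lung arrays and between 3.18 and 4.99 on the 32 brain, heart, kidney and liver arrays of the same rats. Transcripts of other tissues were present on several arrays, however. The mean of 16 skeletal muscle genes stood 5.05 log2 above the median of the 30 lung arrays in air Rat733, 3.96 in exposed Rat729, 2.55 in air Rat738 and 1.55 in exposed Rat728. The other 4 arrays of 3 h lay within -0.10 to 0.06 of that median. Markers of squamous epithelium such as that of the oesophagus stood 5.52 higher in Rat733, 5.15 in Rat729 and 0.98 in Rat728. Hepatocyte markers were 4.01 higher in Rat733 alone at 3 h. Adipocyte markers were at least 1.92 log2 above the median in exposed Rat728, Rat729 and Rat730 and in air Rat733, and cardiac muscle markers were 1.67 to 1.78 higher in Rat728, Rat729 and Rat733. By limma 0 of 16 skeletal muscle, 0 of 9 cardiac, 0 of 8 hepatocyte and 0 of 7 squamous genes were called, with 3, 1, 0 and 0 at an unadjusted p under 0.05, which 25.3% of all genes reached in either direction. Of 7 adipocyte genes 1 was called, the lipase Lipe (0.89 ± 0.20, padj = 0.0048), but all 7 differences were positive, with a median of 1.08 and 4 higher at an unadjusted p under 0.05. The 3′ minus 5′ signal of control transcripts, which is larger in degraded RNA, was 0.42 ± 0.03 (SD, n = 4) in exposed and 0.38 ± 0.17 in air lungs (two-sided exact permutation test, p = 0.686, where 4 against 4 allow no p under 0.0286).

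**Figure D1:**
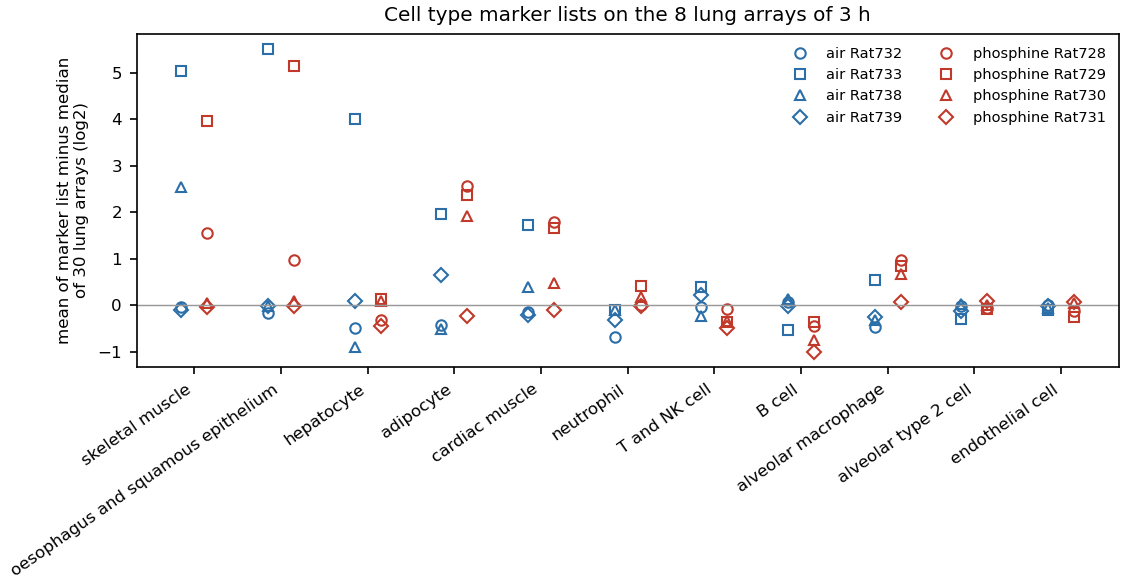
Mean log2 signal of marker lists on each of the 8 lung arrays of 3 h, minus the median of the list over 30 lung arrays. Blue symbols are air rats and red symbols exposed rats. Air Rat733 and exposed Rat729 stand highest on the skeletal muscle and squamous lists, at 5.05 and 3.96 and at 5.52 and 5.15, while the type 2 list lies between -0.28 and 0.10.

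At 3 h after phosphine, 1559 genes differed between the groups (11.6% of those tested), 785 higher (5.84%) and 774 lower (5.76%). The counts of list members given below are to be read beside these 2 shares. At least a 2-fold difference was reached by 87 of the genes that rose and 54 of those that fell. The 2 groups did not overlap for 1369 of the called genes, and for 18.3% of all genes. The median difference over all genes was 0.01. Without Rat729 and Rat733, the 2 arrays with the most muscle RNA, 939 genes were called, 879 of them among the 1559. Without all 4 arrays that carried muscle RNA, which leaves 2 rats a group, 610 were called, 560 of them among the 1559. With the muscle list as a covariate, 1479 were called. Leaving out exposed Rat730 alone gave 913.

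The largest rise outside the class I family described further on was that of Fkbp5, which encodes a chaperone that restrains the glucocorticoid receptor and is itself induced by it. It measured 9.24, 8.95, 9.24 and 8.98 in exposed and 6.86, 6.4, 5.72 and 6.14 in air lungs. Every exposed lung lay far above the highest air lung, and the difference was 2.83 ± 0.37 (7.09-fold, padj = 1.46e-05). Mt2A, a metallothionein that binds zinc and copper and answers to both metals and glucocorticoids, measured 7.77, 8.24, 9.85 and 7.98 against 5.62, 6.49, 5.47 and 5.76. Exposed Rat730 was the highest and the groups did not overlap (2.62 ± 0.35, 6.16-fold, padj = 1.73e-05). The decoy receptor Il1r2, which traps interleukin 1, was measured at 5.78, 6.48, 5.96 and 6.37 against 3.75, 4.57, 3.81 and 4.01. Again all exposed lungs were higher (2.11 ± 0.26, padj = 8.36e-06).

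Pdk4, the kinase that switches pyruvate dehydrogenase off and turns tissue to fat as fuel, measured 8.8, 9.47, 9.04 and 8.54 against 6.12, 8.29, 5.87 and 6.13. Air Rat733 stood far above the other air lungs, yet below every exposed lung (2.36 ± 0.51, padj = 0.00295). Angptl4, a secreted inhibitor of lipoprotein lipase, was 6.6, 6.18, 6.58 and 5.73 against 3.93, 5.2, 3.86 and 4.55, with air Rat733 again the highest of its group. Its difference was 1.89 ± 0.43 (padj = 0.00465). Without the 4 muscle arrays, which leaves 2 rats a group, it was 1.92 and not called (padj = 0.0818). Adipocyte markers were high in exposed Rat728, Rat729 and Rat730 (2.58, 2.37 and 1.92 above the lung median) and in air Rat733 (1.96), which also held muscle and liver markers. The part of fat and liver RNA in these 2 genes was not tested.

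On the list of genes known to answer to glucocorticoids, 12 of 24 measured members rose and 0 fell, and all 24 differences were positive, with a median of 0.50 against 0.01 over all genes. Beside the genes above, the cell cycle inhibitor Cdkn1a rose by 1.44 ± 0.23 (padj = 0.000205), the leucine zipper repressor Tsc22d3 by 1.24, the EGF receptor inhibitor Errfi1 by 1.23 ± 0.26 (padj = 0.00224) and the transcription factor Klf9 by 0.52. Without the 2 highest muscle arrays 9 members were called, and without all 4 of them 7. The members were chosen with earlier results of these rats known, so that the count describes the list and does not test it.

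Map3k6, a kinase upstream of the p38 and JNK stress pathways, was 5.74, 6.11, 6.66 and 6.69 against 4.64, 3.96, 4.12 and 4.28. The lowest exposed lung lay above the highest air lung (2.05 ± 0.20, 4.14-fold, padj = 6.04e-07). Gal, the neuropeptide galanin, was 4.86, 5.32, 6.09 and 6.5 against 3.43, 3.84, 3.84 and 3.34, with wide spread among the exposed (2.08 ± 0.32, padj = 0.000104). Mlc1, a membrane protein best known from astrocytes, was 5.45, 4.89, 5.27 and 5.2 against 3.27, 3.24, 3.26 and 2.96 (2.02 ± 0.33, padj = 0.000215). Its air values sat together at a low signal.

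Tnfaip6, a hyaluronan-binding protein that limits neutrophil entry, measured 5.75, 5.94, 5.94 and 5.85 in exposed and 3.9, 3.71, 4.05 and 4.03 in air lungs. Both groups were narrow and far apart (1.95 ± 0.23, padj = 5.32e-06). Wnk2, a kinase of the family that sets chloride transport, measured 5.94, 6.18, 6.93 and 6.38 against 4.31, 4.87, 4.38 and 4.19 (1.92 ± 0.23, padj = 5.32e-06). Maff was 6.06, 6.5, 6.74 and 6.9 against 5.06, 4.47, 4.9 and 4.82 (1.74 ± 0.20, padj = 5.05e-06). In both genes every exposed lung exceeded every air lung. Rgs4, which shortens signals of G protein-coupled receptors, averaged 7.67 ± 0.22 (SD, n = 4) against 5.82 ± 0.35. Its call (1.85 ± 0.57, padj = 0.0336) was kept in 8 of 19 alternative settings.

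**Figure D2:**
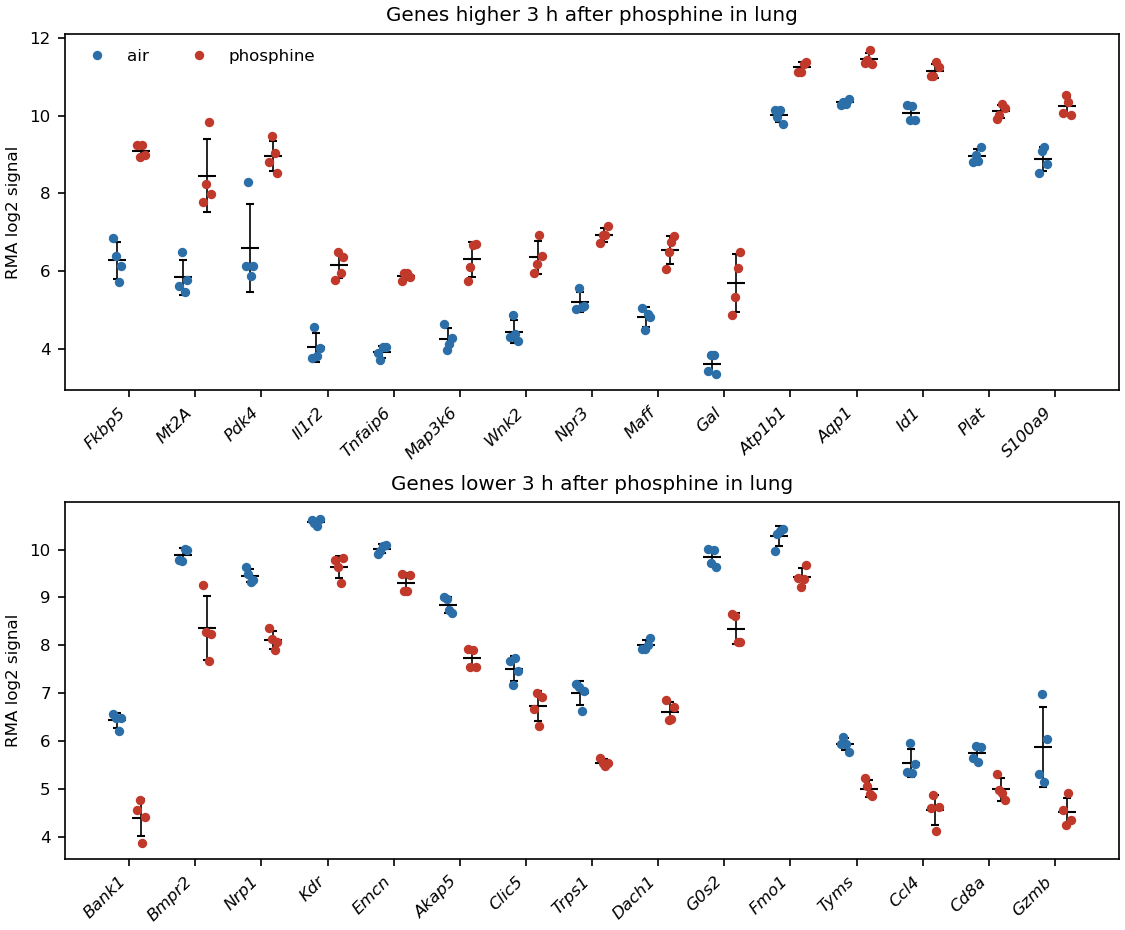
RMA log2 signal of 15 genes that rose and 15 that fell, with 1 point per rat (blue air, red phosphine), and the mean and SD of 4 rats as a bar with whiskers. These 30 genes were taken from all those described, without the class I genes, and no gene plotted has overlapping red and blue points, and air Rat733 stands apart for Pdk4 at 8.29.

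Among the 30 genes with the largest changes, 5 belong to the major histocompatibility class I family, a set of near-identical genes that differ from rat to rat in an outbred stock. Their probe sets may read more than 1 member, and they are reported as uncertain. RT1-CE16 was 6.4, 6.76, 6.76 and 6.2 in exposed and 3.19, 3.49, 3.62 and 3.21 in air lungs (3.15 ± 0.82, padj = 0.0128). Without Rat729 and Rat733 it was 3.11 and not called (padj = 0.0561). The same exposed rats were also higher in each of the other 4 organs, as in liver, at 6.21, 6.8, 6.32 and 6.06 against 4.87, 4.48, 5.14 and 4.44. RT1-T24-3 was 8.94, 4.9, 8.52 and 8.38 against 10.67, 10.2, 8.78 and 10.68 in lung, where the groups overlap. Rat729 was the lowest of the 8 rats for this gene in lung and also in brain (2.77), heart (5.79), kidney (3.79) and liver (4.76), and air Rat738 was the lowest air rat in the same 5 tissues. RT1-CE5 (-2.12 ± 0.62, padj = 0.0255) was 3.41 in Rat729 and between 6.75 and 8.87 in the other lungs, and it was not called without Rat729, Rat738 or Rat739 in turn. RT1-N2 (-1.70 ± 0.47, padj = 0.0204) was lowest in Rat729 in lung, brain, kidney and liver, but in heart Rat729 was the highest, at 5.13. The related H2-Q7-ps1 (2.14 ± 0.56, padj = 0.0141) was highest in Rat729 among the exposed and in Rat738 among the air rats, in lung and in liver. Of 17 measured RT1 genes, 1 was called higher and 4 lower, against 5.84% and 5.76% of all genes.

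Bmpr2, the type 2 receptor for bone morphogenetic proteins known in humans for mutations in heritable pulmonary arterial hypertension, was 9.26, 8.27, 7.67 and 8.24 in exposed and 9.79, 9.76, 10.02 and 10 in air lungs. All exposed lungs were lower, Rat728 the least and Rat730 the most (-1.53 ± 0.25, 2.89-fold, padj = 0.000215). Nrp1, the co-receptor for VEGF and semaphorins, was 8.35, 8.13, 7.91 and 8.06 against 9.63, 9.49, 9.33 and 9.37. The groups were narrow and did not overlap (-1.34 ± 0.13, padj = 5.7e-07). Kdr, the main VEGF receptor of endothelium, was 9.78, 9.63, 9.31 and 9.83 against 10.62, 10.56, 10.49 and 10.64 (-0.94 ± 0.10, padj = 1.94e-06).

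On the list for endothelial growth and tone 6 of 28 genes rose and 4 fell, with a median of 0.13. Npr3, the clearance receptor for natriuretic peptides, rose from 5.03, 5.57, 5.08 and 5.11 in air lungs to 6.72, 6.93, 6.93 and 7.15 in exposed lungs (1.74 ± 0.21, padj = 7.56e-06). Placental growth factor, Pgf, rose by 1.26 ± 0.15 (padj = 5.32e-06) and Ramp3, a partner of the adrenomedullin receptor, by 1.24 ± 0.19 (padj = 9.02e-05). The other members called were Nos3, the endothelial nitric oxide synthase, at 0.90, the apelin gene Apln at 0.64, its receptor Aplnr at -0.51, the angiopoietin Angpt1 at -0.61 and the prostacyclin synthase Ptgis at 0.38. Vegfa itself measured 10.3 ± 0.2 (SD, n = 4) against 10.2 ± 0.2 and was not called (0.13 ± 0.14, padj = 0.648), with its other probe set of opposite sign. Of 10 endothelial markers, Cldn5 and Esam rose, Emcn (-0.71 ± 0.13, padj = 0.000548) and Kdr fell, and their mean level ranged from 9.87 to 10.2 in exposed and from 10 to 10.1 in air lungs.

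Around Bmpr2, 2 genes of the BMP and TGF beta list rose and 5 of 22 fell, against 5.84% and 5.76% of all genes. Id1, a direct target gene of BMP signalling, was 11.02, 11.02, 11.38 and 11.26 against 10.28, 9.89, 10.25 and 9.89. It was higher in every exposed lung (1.09 ± 0.14, padj = 1.1e-05), and so was the ligand Bmp2 (1.16 ± 0.18, padj = 0.000138). The ligand Bmp6 fell (-0.62 ± 0.09, padj = 3.2e-05), although 2 of its 3 other probe sets had the opposite sign. Bmp4 (-0.45), the receptor Bmpr1a (-0.45) and the pseudoreceptor Bambi (-0.50) were the remaining members called lower.

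Of 21 genes of alveolar fluid transport and barrier, 6 rose and 1 fell, against 5.84% and 5.76% of all genes. Atp1b1, the beta subunit of the sodium pump, was 11.14, 11.14, 11.34 and 11.39 against 10.16, 9.96, 10.16 and 9.78. Aqp1, the water channel of lung capillaries, was 11.37, 11.44, 11.7 and 11.34 against 10.28, 10.36, 10.31 and 10.44. In both genes all exposed lungs were higher, by 1.24 ± 0.16 (padj = 1.88e-05) and 1.12 ± 0.14 (padj = 6.47e-06). The alpha subunit of the epithelial sodium channel, Scnn1a, rose by 0.80 ± 0.24 (padj = 0.0323), in 11 of 19 alternative settings. Nedd4l, the ubiquitin ligase that removes that channel from the membrane, rose by 0.93 ± 0.20 (padj = 0.00291). The endothelial tight junction protein Cldn5 rose by 0.63 ± 0.12 (padj = 0.000652) and Cldn1 by 0.76, while the scaffold Tjp1 fell by 0.64 on the log2 scale.

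The type 1 cell genes Akap5, which anchors protein kinase A, and Clic5, a chloride channel family member, fell by 1.11 ± 0.12 (padj = 1.94e-06) and by 0.78 ± 0.19 (padj = 0.00943). Akap5 was 7.93, 7.55, 7.9 and 7.54 in exposed and 9, 8.96, 8.73 and 8.68 in air lungs, without overlap. Of 9 type 1 genes 3 were called lower and 0 higher, with a median of -0.14. Without the 2 highest muscle arrays 3 were called lower, and without all 4 of them 1. The surfactant protein genes Sftpa1 (0.28 ± 0.09, padj = 0.0416) and Sftpb (0.33 ± 0.11, padj = 0.0413) were called higher, but in 8 and 5 of 19 alternative settings, and without the 4 muscle arrays neither was. Sftpc measured 13.7 ± 0.1 (SD, n = 4) against 13.8 ± 0.03 (-0.03 ± 0.06, padj = 0.827) and the club cell gene Scgb1a1 13.5 ± 0.1 against 13.4 ± 0.1 (0.03 ± 0.08, padj = 0.856). Both signals lie near the top of the array's range, whose highest lung value is 13.96.

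Of 22 coagulation and matrix genes, 7 rose and 2 fell. Plat, the tissue plasminogen activator, was 9.92, 10.03, 10.31 and 10.21 against 8.81, 8.99, 8.85 and 9.21 (1.15 ± 0.15, padj = 1.1e-05). The urokinase receptor Plaur rose by 1.24 ± 0.27 (padj = 0.00305) and Procr, the endothelial protein C receptor, by 0.98 ± 0.18 (padj = 0.000777), with no overlap in these 3 genes. Urokinase itself, Plau, fell by 0.83 on the log2 scale, and the tissue factor inhibitor Tfpi by 0.40. The protease Adamts9 rose by 1.00 ± 0.18 (padj = 0.00052), with its other probe set of opposite sign.

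**Figure D3:**
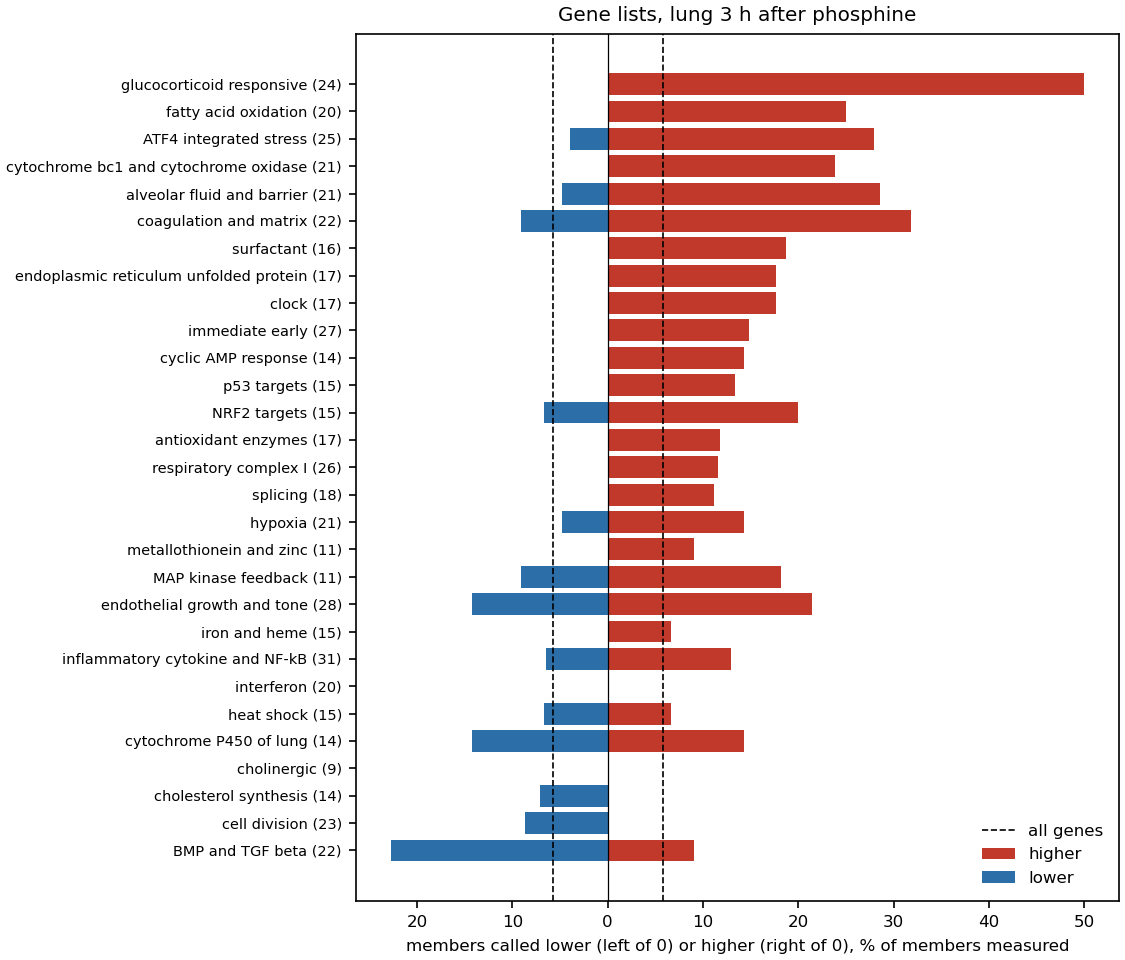
Share of the measured members of 29 gene lists called higher (red, right) or lower (blue, left) in lung 3 h after phosphine, with the number measured in brackets. Dashed lines mark the share of all 13438 genes, 5.84% higher and 5.76% lower. The glucocorticoid list reaches 12 of 24, and the interferon and cholinergic lists have none.

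Among genes of acute stress, the integrated stress response list had 7 of 25 members higher and 1 lower. Trib3, a pseudokinase induced by ATF4, was 4.92, 5.54, 6.23 and 5.94 against 4.4, 4.78, 4.69 and 4.89 (0.97 ± 0.24, padj = 0.00992). The chromatin protein Nupr1 rose by 1.04 ± 0.24 (padj = 0.00448) and Ppp1r15a, the phosphatase subunit that restores translation, by 0.58 ± 0.14 (padj = 0.00591). The receptor Vldlr fell by 0.64 ± 0.13 (padj = 0.00133). Ddit3 (0.25 ± 0.17, padj = 0.377), Gdf15 (0.08 ± 0.14, padj = 0.798) and Atf3 (-0.20 ± 0.49, padj = 0.859) were not called. Without the 4 muscle arrays 2 members were called higher and 1 lower. In lung at 1 h Atf3 was called higher (1.87, padj = 0.0199).

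The heme oxygenase Hmox1, a marker of oxidative stress, was 7.11, 7.45, 7.67 and 7.26 in exposed and 7.2, 7.1, 7.36 and 7.42 in air lungs, with overlapping groups (0.10 ± 0.18, padj = 0.81). In lung at 1 h it was called lower (-0.68, padj = 0.0235). Of 15 NRF2 targets 3 rose, against 5.84% of all genes: the thioredoxin reductase Txnrd1 (0.37 ± 0.10, padj = 0.0168), the glutathione reductase Gsr (0.40 ± 0.11, padj = 0.0153) and the transketolase Tkt (0.39 ± 0.11, padj = 0.0219). The exporter Abcc1 fell. Without the 4 muscle arrays their differences were 0.34, 0.36 and 0.39, and 0 of the 3 were called. Of 17 antioxidant enzymes, the mitochondrial superoxide dismutase Sod2 (0.40 ± 0.13, padj = 0.0497) and the lung peroxiredoxin Prdx6 (0.32 ± 0.11, padj = 0.0478) passed the threshold narrowly, in 6 and 4 of 19 alternative settings. The inducible chaperone Hspa1a was 8.25, 8.37, 8.49 and 8.95 against 7.62, 7.67, 7 and 7.48 (1.07 ± 0.19, padj = 0.000453), the 1 gene of 15 on the heat shock list that rose, while Chordc1 fell by 0.37. The sestrin Sesn1, a target of p53, rose by 0.81 ± 0.12 (padj = 9.79e-05).

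On the list of immediate early genes 4 of 27 rose and 0 fell, among them the nuclear receptor Nr4a3 (1.23 ± 0.25, padj = 0.00202, 1 of its 2 other probe sets of opposite sign) and the AP-1 member Junb (0.74 ± 0.22, padj = 0.026). Junb was called in 12 of 19 alternative settings. Its mean at 3 h was 6.72 in exposed and 5.98 in air lungs. Air lungs at 1, 6 and 24 h averaged 6.79, 6.49 and 6.76 for Junb. Crem, whose short forms repress cyclic AMP transcription, was 7.89, 8.39, 8.4 and 8.02 against 7.16, 7.23, 6.97 and 7.11 (1.06 ± 0.21, padj = 0.00165), and the phosphodiesterase Pde10a rose by 0.94 ± 0.14 (padj = 7.3e-05). Of the unfolded protein list, 3 of 17 rose, led by Edem1, which sorts misfolded proteins (0.63 ± 0.12, padj = 0.000891).

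In respiratory complex I 3 of 26 genes were called higher, and among cytochrome bc1 and cytochrome oxidase genes 5 of 21, against 5.84% of all genes. In either list 0 were called lower, and the medians were 0.11 and 0.12. Quantile normalization left 2 and 2 called higher. Cyc1, cytochrome c1, was 10.16, 10.1, 9.92 and 9.45 in exposed and 9.11, 9.67, 9.43 and 9.27 in air lungs (0.54 ± 0.14, padj = 0.00985), with overlapping groups. Uqcrfs1, the iron-sulfur protein of the bc1 complex, was 10.46, 10.35, 10.04 and 9.92 against 9.56, 10.05, 9.8 and 9.59 (0.44 ± 0.11, padj = 0.00882). In both genes Rat733 was the highest air lung and Rat728 and Rat729 the highest exposed ones, the same 3 arrays that were highest on the cardiac muscle list. With the muscle list as a covariate the differences were 0.59 (padj = 0.00131) and 0.49 (padj = 0.000444). Without the 2 highest muscle arrays the counts were 1 and 4, and without all 4 of them 0 and 1, with Uqcrfs1 still called (0.40, padj = 0.0365) and Cyc1 at 0.50 (padj = 0.0855). On the fatty acid oxidation list 5 of 20 rose and 0 fell, with a median of 0.32, and without the 4 muscle arrays 3 rose. Adipocyte and cardiac muscle markers, also positive in the median (1.08 and 0.70), were high in 3 and in 2 of the 4 exposed lungs and in air Rat733, and their part in this list was not tested. Cpt1a, the gate of fatty acid entry into mitochondria, rose by 0.74 ± 0.14 (padj = 0.000841) and by 0.92 without the 4 arrays (padj = 0.00786).

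Of 21 genes that answer to low oxygen 3 rose and 1 fell, with a median of 0.16, and without the 4 muscle arrays 0 and 1. Pdk1, which slows pyruvate use (0.70 ± 0.20, padj = 0.0266), and the collagen hydroxylase P4ha2 (0.42 ± 0.10, padj = 0.00639) were higher and P4ha1 was lower (-0.49 ± 0.11, padj = 0.00289). The glucose transporter Slc2a1 was 7.03, 7.32, 7.47 and 7.46 against 6.99, 6.97, 6.97 and 6.97, without overlap but not called (0.34 ± 0.12, padj = 0.0634).

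Inflammatory genes were called in both directions. Of 31 cytokine and NF-kB genes 4 rose and 2 fell, against 5.84% and 5.76% of all genes, with a median of -0.06. Il1b measured 7.56, 8.09, 7.52 and 7.42 against 6.8, 6.7, 7.15 and 6.66 (0.82 ± 0.24, padj = 0.0265), without overlap, and was called in 12 of 19 alternative settings. Air lungs averaged 6.83 for this gene at 3 h, below the 7.39, 8.28 and 7.48 of air lungs at 1, 6 and 24 h. The chemokine Ccl4 fell, from 5.36, 5.95, 5.34 and 5.51 in air to 4.61, 4.87, 4.11 and 4.63 in exposed lungs (-0.99 ± 0.16, padj = 0.000225). The acute-phase siderophore binder Lcn2 was called (1.01 ± 0.33, padj = 0.0454), in 8 of 19 settings, and Il1a (1.42 ± 0.46, padj = 0.0443) in 7. For Il1a exposed Rat728, at 5.97, lay below every air lung (6.05 to 6.33). Mean Lcn2 was 10.719 in exposed and 9.712 in air lungs at 3 h. Air lungs at 1, 6 and 24 h averaged 10.933, 11.048 and 9.903 for Lcn2. Il6 lay at 2.28 to 2.62 on all 8 arrays, close to the lowest signals measured, and Cxcl1 at 6.86 to 7.86, and neither was called. Limma called 0 of 20 interferon genes, with a median of -0.28 and 6 lower at an unadjusted p under 0.05, against 25.3% of all genes in either direction, and called 2 lower without the 4 muscle arrays.

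On the neutrophil list 3 of 7 genes rose and 1 fell. S100a9, which with S100a8 forms calprotectin, was 10.08, 10.53, 10.36 and 10.03 against 8.53, 9.1, 9.19 and 8.75 (1.36 ± 0.24, padj = 0.000366), and the collagenase Mmp8 was 4.11, 4.93, 4.99 and 4.38 against 3.27, 3.45, 3.4 and 3.3 (1.25 ± 0.20, padj = 0.000205). Neither gene's groups overlapped, and S100a8 rose too (1.14 ± 0.33, padj = 0.0263). S100a9 averaged 10.25 in exposed lungs at 3 h, and 9.31, 10.29 and 9.61 in air lungs at 1, 6 and 24 h. The ficolin Fcnb, another gene of the list, fell by 1.35 ± 0.35 (padj = 0.0136). Neither S100a8 nor Fcnb was called without the 2 highest muscle arrays or without all 4 of them. In each of these fits the list had 2 genes called higher and 0 lower. The mean of 7 neutrophil markers ran from 5.70 to 6.13 in exposed and from 5.02 to 5.61 in air lungs.

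Bank1, a scaffold of the B cell receptor, had the largest fall outside the class I family: 4.55, 4.76, 3.87 and 4.42 against 6.56, 6.49, 6.2 and 6.48 (-2.03 ± 0.18, 4.1-fold, padj = 5.18e-07). The groups lay far apart. Of 7 B cell markers 2 were called lower (Bank1 and the kinase Blk, -0.61 ± 0.19, padj = 0.0336, the latter in 9 of 18 alternative settings), and the mean of the list was 5.52 to 6.16 in exposed and 6.00 to 6.67 in air lungs, overlapping. Of 15 T and NK cell markers 4 were called lower and 0 higher, with a median of -0.36: the granule protease Gzmb (-1.36 ± 0.37, padj = 0.0175), the pore protein Prf1 (-0.83 ± 0.27, padj = 0.0427), Cd8a (-0.76 ± 0.20, padj = 0.0136) and the kinase Lck (-0.48 ± 0.15, padj = 0.0334). Air Rat733 held the highest Gzmb, at 6.99, and the highest Prf1, at 9.21. The mean of the list was 5.45 to 5.86 in exposed and 5.71 to 6.34 in air lungs. Without Rat729 and Rat733 the 4 differences were -0.89, -0.54, -0.70 and -0.40 and 0 were called, and without all 4 muscle arrays Lck was called (-0.67, padj = 0.0384), whereas Bank1 was called in each of the 19 settings.

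The complement gene C1qb was 7.49, 7.56, 7.62 and 7.59 against 6.66, 6.76, 6.8 and 6.47 (0.89 ± 0.14, padj = 0.000107), and the lipopolysaccharide receptor Cd14 rose by 0.82 ± 0.15 (padj = 0.000599), both without overlap. The tissue macrophage gene Adgre1 fell by 0.76 ± 0.16 (padj = 0.00269) and the monocyte chemokine receptor Ccr2 by 0.77 ± 0.24 (padj = 0.0339), the latter with overlapping groups and in 8 of 18 settings. On the monocyte and macrophage list 5 of 10 markers rose and 2 fell, and without the 4 muscle arrays 3 and 1. Their mean level was 6.42 to 6.64 in exposed and 6.28 to 6.54 in air lungs. On the alveolar macrophage list Mrc1 and Cd68, 2 of 5 genes, were called higher, and all 5 differences were positive, with a median of 0.50. With quantile normalization, median centring, or without the 2 or the 4 muscle arrays, 0 of the 5 were called. The list averaged 8.05 to 8.95 in exposed and 7.51 to 8.53 in air lungs, overlapping.

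Among other falls, G0s2, which blocks adipose triglyceride lipase, was 8.65, 8.61, 8.06 and 8.06 against 10.01, 9.72, 9.99 and 9.63 (-1.49 ± 0.24, padj = 0.000142). The transcription factors Trps1 (5.65, 5.53, 5.48 and 5.54 against 7.2, 7.13, 6.63 and 7.05) and Dach1 (6.85, 6.44, 6.46 and 6.7 against 7.92, 7.93, 8.01 and 8.16) were lower in each exposed lung, by -1.45 ± 0.19 (padj = 1.35e-05) and -1.40 ± 0.25 (padj = 0.000539). The homeobox gene Hmbox1 fell by 1.59 ± 0.24 (padj = 7.53e-05), Rimbp2, a binding protein of presynaptic active zones, by 1.44 ± 0.17 (padj = 5.05e-06), and the glutamate receptor gene Grm3 by 1.41 ± 0.18 (padj = 1.46e-05). Pcp4l1, Btbd3 and Lhfpl3 fell by 1.65, 1.47 and 1.61 on the log2 scale, with Lhfpl3 called in 14 of 19 settings. Of 23 cell division genes 2 were called, both lower, against 5.76% of all genes, with a median of -0.34: the thymidylate synthase Tyms (-0.94 ± 0.18, padj = 0.000791) and the replication helicase subunit Mcm6 (-0.45 ± 0.11, padj = 0.0102).

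In xenobiotic metabolism Por, the reductase that feeds electrons to all microsomal cytochromes P450, was 8.75, 8.93, 9.28 and 9.06 against 7.92, 7.55, 7.85 and 7.81 (1.22 ± 0.17, padj = 2.09e-05). The flavin monooxygenase Fmo1 went down in every exposed lung, by 0.85 ± 0.13 (padj = 0.00011). The dioxin receptor Ahr was 4.52, 4.47, 4.61 and 4.53 against 5.79, 5.03, 5.55 and 5.45 (-0.92 ± 0.24, padj = 0.0148). Cyp1b1 rose by 0.70 ± 0.17 (padj = 0.00684), so that 2 of the 14 genes of this list rose and 2 fell. Of 17 clock genes 3 rose, against 5.84% of all genes. Bmal1 led them (0.80 ± 0.19, padj = 0.00577), and for it air Rat738, at 6.1, lay close to the exposed 6.21 to 6.4.

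Against the 1559 genes called at 3 h, the same fit called 779 at 1 h (5.8% of genes), 13 at 6 h (0.0967%), where only 2 air rats were available, and 1 at 24 h (0.00744%). Both 1 h and 3 h called 278 genes, 259 of them in the same direction, which is 16.6% of the 3 h and 33.2% of the 1 h calls. The difference between the 2 effects was itself called for 441 genes (3.28%). Mlc1 was -0.89 at 1 h and 2.02 at 3 h, a difference of 2.90 (padj = 0.00192). Lcn2 was -1.33 at 1 h and 1.01 at 3 h, a difference of 2.34 (padj = 0.00662), while Gzmb went from 0.70 to -1.36 (difference -2.06, padj = 0.0287). Grm3, Hmbox1 and Raph1 were 0.51, 0.24 and 1.03 at 1 h and lower than air at 3 h, with differences of -1.93, -1.84 and -1.80. A single exposed lung of 1 h held hepatocyte transcripts, 8.03 log2 above the lung median, and its part in these differences was not tested. The mean air levels lay apart between the times as well, by amounts that were not tested. Mean Mlc1 was 4.999 in air and 4.113 in exposed lungs at 1 h, and 3.184 and 5.201 at 3 h. Mean Lcn2 was 10.933 and 9.601 at 1 h, and 9.712 and 10.719 at 3 h. Mean Gzmb was 4.881 and 5.585 at 1 h, and 5.869 and 4.514 at 3 h. Mean Hmbox1 was 4.927 and 5.169 at 1 h, and 6.076 and 4.482 at 3 h. Mean Raph1 was 5.252 and 6.278 at 1 h, and 6.267 and 5.496 at 3 h. For Grm3 the exposed means, 5.223 and 3.743, lay further apart than the air means, 4.709 and 5.156.

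Some of the vascular and epithelial genes differed from air at 3 h and not by a called amount at 1 h. Nrp1 was -0.16 at 1 h and -1.34 at 3 h (difference called, padj = 0.00115), Bmpr2 -0.12 and -1.53 (padj = 0.0279), Akap5 -0.09 and -1.11 (padj = 0.00221), Aqp1 0.32 and 1.12 (padj = 0.0219) and Id1 0.24 and 1.09 (padj = 0.0179). Trps1 was 0.31 at 1 h and -1.45 at 3 h (padj = 0.00106). For each of these genes the mean air levels lay apart between the times as well, by amounts that were not tested. Mean Nrp1 was 8.963 in air and 8.806 in exposed lungs at 1 h, and 9.455 and 8.114 at 3 h. Mean Akap5 was 8.242 and 8.156 at 1 h, and 8.843 and 7.73 at 3 h. Mean Aqp1 was 10.694 and 11.011 at 1 h, and 10.348 and 11.463 at 3 h. Mean Id1 was 10.638 and 10.882 at 1 h, and 10.077 and 11.171 at 3 h. Mean Bmpr2 was 9.2 in air and 9.0 in exposed lungs at 1 h, and 9.9 and 8.4 at 3 h. Mean Trps1 was 5.7 and 6.0 at 1 h, and 7.0 and 5.6 at 3 h. By contrast the early genes Maff (1.86 at 1 h, padj of the difference 0.872), Plat (1.14, 0.991) and Mt2A (2.43, 0.88) had effects at 1 h whose difference from 3 h was not called. Nr4a3 was higher at 1 h (2.80) than at 3 h (padj = 0.0168).

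Against 6 h the effect differed for 422 genes (3.14%) and against 24 h for 519 (3.86%). Fkbp5 was 0.58 at 6 h and 0.34 at 24 h, both below its 2.83 at 3 h (differences 2.24, padj = 0.0343, and 2.49, padj = 0.00653). Map3k6 was 0.09 at 6 h (difference 1.96, padj = 0.00179), and Dll1, a Notch ligand that rose by 1.69 ± 0.22 at 3 h (padj = 1.63e-05), was -0.23 (difference 1.92, padj = 0.00398). Zeb2, a repressor of epithelial genes, was -1.33 ± 0.33 at 3 h (padj = 0.00969) and 1.15 at 6 h (difference -2.48, padj = 0.0105), and Cped1 went from -0.90 to 1.45 (difference -2.35, padj = 0.00672). Hmbox1 differed too, by -2.33. Its mean was 6.076 in air and 4.482 in exposed lungs at 3 h, and 4.996 and 5.736 at 6 h. Mean Zeb2 was 7.129 and 5.804 at 3 h, and 5.87 and 7.022 at 6 h, so that air and exposed levels both lay apart. Bank1 stood at 0.35 at 24 h (difference -2.39, padj = 1.93e-05), Il1r2 at -0.35 (difference 2.46, padj = 0.000615) and Mt2A at 0.10 (difference 2.52, padj = 0.00371). S100a9 was -0.89 at 24 h (padj = 0.774), and its difference from 3 h was called (padj = 0.000511).

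**Figure D4:**
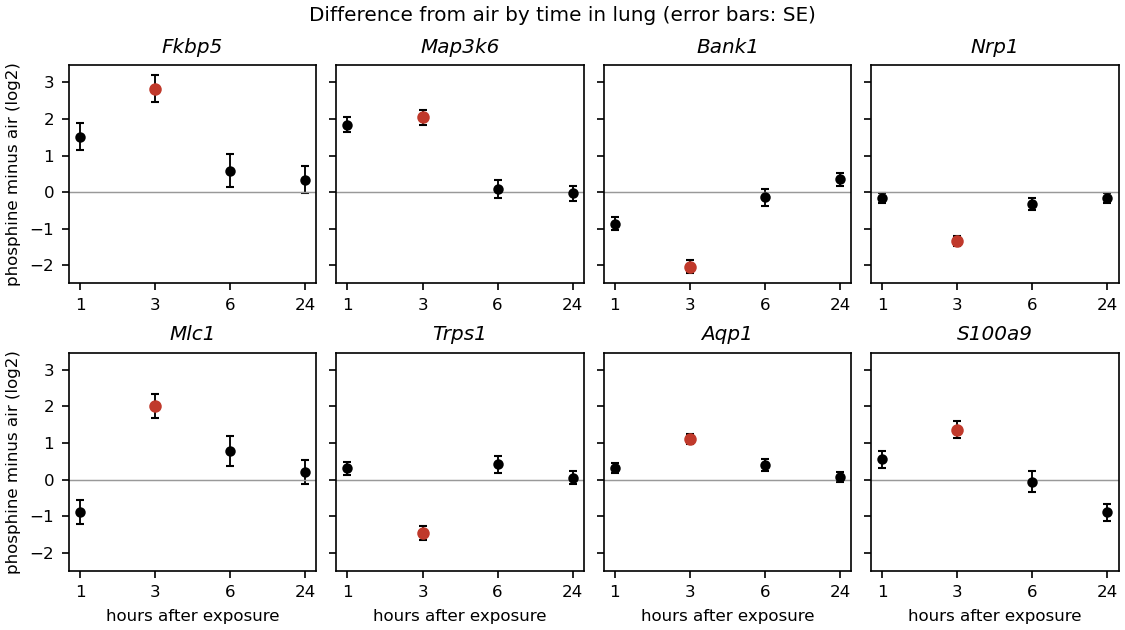
Difference between exposed and air lungs (log2, with the SE of the fit) at 1, 3, 6 and 24 h for 8 genes, with 3 h in red. Fkbp5 and Map3k6 are high at 3 h and near 0 at 24 h, while Nrp1 and Trps1 are lowest at 3 h, at -1.34 and -1.45.

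Lung was then set against the mean of brain, heart, kidney and liver of the same 8 rats. The effect of phosphine differed for 565 genes (4.2%), 326 with a higher and 239 with a lower difference in lung, a share of 57.7% higher that was 45.8% with array median centring. With the rat as a block it was called for 562 genes. Bank1, -2.03 in lung, was -0.06 in brain, 0.12 in heart, 0.08 in kidney and 0.29 in liver (difference -2.15, padj = 9.03e-11). Npr3, 1.74 in lung, was between -0.42 and 0.06 in the others (difference 1.84, padj = 4.29e-07). Wnk2 (difference 1.89, padj = 3.44e-05), Il1r2 (1.92, padj = 1.38e-05) and Dll1 (1.94, padj = 4.54e-05) also rose in lung against small differences elsewhere. RT1-CE16 differed as well (1.86, padj = 9.92e-07), with the reservation given above. Bmpr2 was -1.53 in lung against 0.32, -0.24, -0.28 and -0.24 (difference -1.42, padj = 0.00737), and Aqp1 1.12 against 0.33, 0.20, -0.04 and -0.25 (difference 1.06, padj = 0.000732).

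Fkbp5 was 1.14 in brain, 2.0 in heart, 2.20 in kidney and 1.96 in liver, and the lung effect was larger than their mean by 1.00 (padj = 0.00604). Cdkn1a was 0.86, 0.83, 2.20 and 2.60, without a called difference from lung (padj = 0.866). Hmox1, near 0 in lung, was 1.71 in heart and 2.05 in kidney, but its difference between lung and the mean of the others was not called (-0.85, padj = 0.238). Atf3, -0.20 in lung, was 0.02 in brain, 4.43 in heart, 1.03 in kidney (padj = 0.141) and -0.75 in liver. Its difference from their mean was called (-1.38, padj = 0.0426), with heart far above the other organs.

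**Figure D5:**
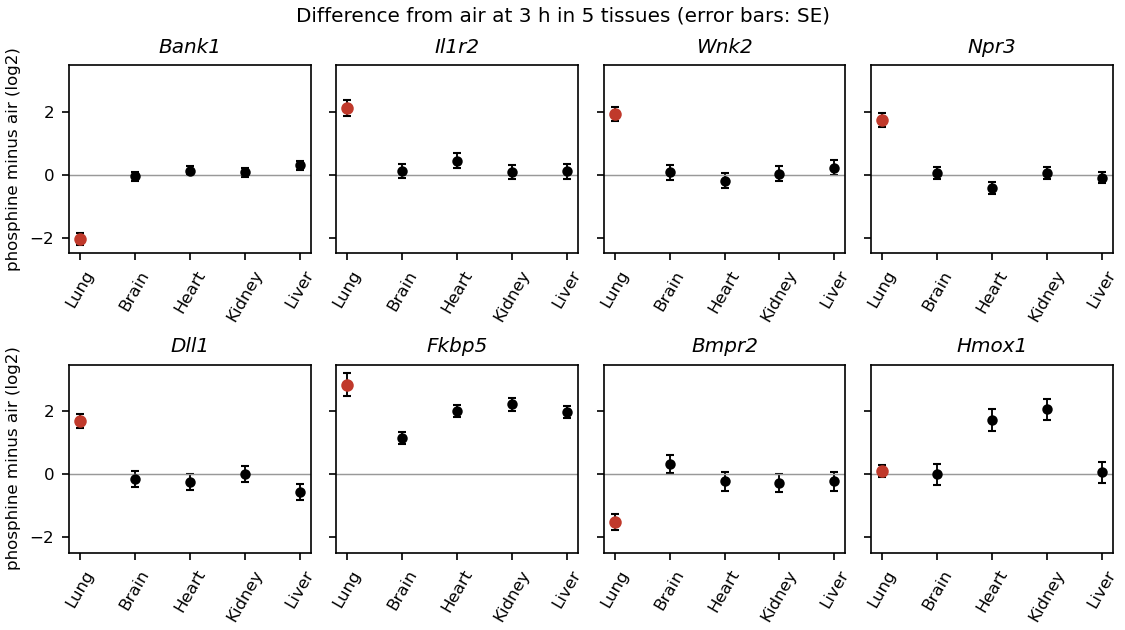
Difference between exposed and air rats (log2, with the SE) at 3 h in 5 tissues of the same rats for 8 genes, with lung in red. Bank1 and Bmpr2 are low and Il1r2, Wnk2, Npr3 and Dll1 high in lung, Fkbp5 is above 0 in all 5 tissues, and Hmox1 stands at 1.71 in heart and 2.05 in kidney.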

How the data were processed

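Total RNA was purified from cryopulverized lung with RNeasy Plus columns and labelled with biotin by the GeneChip 3′ IVT Plus kit, per the labels' protocols. The authors deposited a log2 signal for each probe set of a single-colour array, made with RMA and Partek per the submitters' processing notes, which name no versions. RMA forces the arrays to 1 distribution, so a shift of all genes would not be seen. Whether the tissues were normalized together is not given. Arrays have no read depth, and their number limits the precision.

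Of 31139 probe sets, 19063 list 1 gene, 572 several and 11407 none. They gave 13438 genes, of which 3985 have several probe sets and were read from the one with the highest mean over all arrays. Lung values run from 1.78 to 13.96. No dim gene was left out. The 30 lung arrays were fitted with limma 3.58.1 (R 4.3.3), with 1 mean for each exposure and time, eBayes and Benjamini-Hochberg adjustment at 0.05. Differences between times were contrasts of that fit. The difference between lung and the other tissues came from a fit to 40 arrays of 8 rats. The tissues of a rat share its number, so the rat pairs tissues, while exposed and air rats differ. The method was tested on simulated data.

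Gene lists (29 by function, 25 of cell type markers), named genes and tests were chosen with earlier results of these data known, so lists are described by counts without a test. The rule for named genes took the 15 largest called rises and falls with a mean over 4.5534, the median lung signal, in the higher group, up to 4 called members per list, 6 genes per test of a difference, and a panel of 14. It named 142 genes. A set of 125 genes was followed through the alternative settings, and some of these, such as Uqcrc1, Herpud1 and Pdpn, are not described above. Further called members of some lists were added to the text after seeing their values. The alternatives were quantile normalization within lung, median centring, leaving out low genes, the mean of probe sets, trend and robust eBayes, array weights, the muscle list as covariate, only the 2 groups, leaving out each rat and the array with a muscle list at least 4 log2 above the median (air Rat733). In lung this last setting equals the fit without Rat733, so each count of settings holds that fit 2 times. Leaving out the 2 or 4 arrays with most muscle RNA, and the motif ACANNNTGT, were added after the data were seen. Figures were drawn with Python 3.11.15 and matplotlib 3.10.9.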

Additional observations from a re-analysis of the deposited data

Results flagged for a closer look

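For the 125 genes followed through the alternative settings there were 250 groups of 4 values. Of these groups, 14 had 1 rat far from the other 3, and chance gives about 1 in 20. In air lungs these were Pdk4 in Rat733 (8.29, the next 6.13), Npr3 in Rat733 (5.57), Prdx6 in Rat733 (11.17, the lowest), Mlc1 in Rat739 (2.96), Scnn1a in Rat739 (6.34), Nr4a3 in Rat738 (3.81) and H2-Q7-ps1 in Rat738 (4.58). In exposed lungs they were H2-Q7-ps1 (6.39), RT1-T24-3 (4.9) and Ppp1r15a (6.91) in Rat729, Cdkn1a in Rat730 (8.47), Fcnb (5.35) and Cped1 (5.77) in Rat731 and Adgre1 in Rat728 (5.75). Rat733 and Rat729 also carried the most muscle RNA, whose part in these values was not tested.

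The effect at 3 h differed from that at 1 h for 441 genes by a limma contrast, among them Mlc1 (2.904), Lcn2 (2.338), Gzmb (-2.059), Grm3 (-1.927), Hmbox1 (-1.835) and Raph1 (-1.797). It differed from 6 h for 422 genes, with Zeb2 (-2.477), Cped1 (-2.348), Hmbox1 (-2.334), Fkbp5 (2.243), Map3k6 (1.962) and Dll1 (1.917) the widest of those above the median signal. From 24 h it differed for 519 genes, with RT1-CE16 (4.546), H2-Q7-ps1 (2.965), Mt2A (2.525), Fkbp5 (2.489), Il1r2 (2.462) and Bank1 (-2.387). Between lung and the mean of the other 4 organs it differed for 565 genes, with Bank1 (-2.145), Dll1 (1.935), Il1r2 (1.924), Wnk2 (1.885), RT1-CE16 (1.858) and Npr3 (1.838). The class I genes among these vary between outbred rats, and other rats were used at each time.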

How the results depend on the processing

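The count of 1559 genes called at 3 h lay between 1293 and 2142 under normalization, filter, probe set, variance, weight, covariate and sample settings, between 913 (without Rat730) and 1365 (without Rat738) with 1 rat left out, and was 939 and 610 without the 2 and the 4 arrays with most muscle RNA. For the difference from 1 h (441) the counts were 901 with array weights, 187 and 120 without the 2 and 4 arrays, and 235 (without Rat733) to 431 with 1 rat left out, among them 263 without Rat730 and 282 without Rat732. For 6 h (422) they were 280 with weights, 189 and 176 without the 2 and 4 arrays, and 227 (without Rat730) to 400, among them 278, 270 and 262 without Rat731, Rat732 and Rat733, and for 24 h (519) 957 with weights, 313 and 235 without the 2 and 4 arrays, and 321 (without Rat730) to 530. For lung against the other organs (565) they were 160 without the 4 rats and 242 (without Rat732) to 591 with 1 rat left out, among them 343, 354 and 336 without Rat730, Rat733 and Rat739. Fits without rats hold fewer samples, and the cause of the other changes was not tested. With the rat as a block, which pairs the 5 organs of a rat, 562 genes were called, and 539 from the difference within each rat. Of the 125 genes followed through the alternatives, 115 were called in the main fit. Of these 115, 57 were called under every alternative and 0 changed direction. Without the 2 and the 4 arrays 81 and 65 stayed called. With 4 rats a group and 2 in air at 6 h, a missed threshold does not show that a gene stayed the same.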
